A study of Mus musculus with 7 samples.

Results

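Metalloproteinases cut the proteins of the extracellular matrix, and TIMP proteins inhibit them. The genes described here are the Mmp, Adamts, Adamtsl and Timp genes of the mouse, chosen by symbol alone: every gene whose array name began with Mmp, Adamts, Adamtsl or Timp followed by a digit. They numbered 51 of the 36406 gene names on the array, read by 70 probes: 23 Mmp, 19 Adamts, 5 Adamtsl and 4 Timp genes. The rule itself reads no measured value. RNA came from muscle satellite cells, which are its resident stem cells, of male C57BL/6 mice with no stated injury or genetic change in either group. The geriatric group had 4 arrays, from mice aged 28, 28, 29 and 30 months, and the young group 3 arrays, from mice aged 2, 2 and 3 months. Cells of both groups were sorted by flow cytometry as positive for integrin α7 and CD34 and negative for the lineage antigens CD31, CD45, CD11b and Sca1. The little RNA they gave was amplified and hybridised to 1-colour Agilent arrays. The first 2 geriatric arrays carry 1 sample name, although their titles number them as separate biological replicates. They were averaged, so that 3 geriatric samples were compared with 3 young samples. The labels do not say whether mice were pooled, so the tests measure the spread between samples, which may be partly technical.

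Matrix metalloproteinases (MMPs) are zinc enzymes made as inactive precursors; most are secreted, and a membrane-type group stays on the cell surface. ADAMTS enzymes are secreted relatives with thrombospondin repeats that process proteoglycans, procollagens and other matrix proteins, and the ADAMTS-like proteins share the repeats but lack the protease domain. TIMPs bind the active site of these enzymes, and TIMP3 is held in the matrix and also inhibits several ADAM and ADAMTS enzymes. In muscle, satellite cells lie under the basal lamina of the fibre, a matrix that these enzymes remodel when muscle regenerates.

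Many Mmp genes lie side by side. A cluster on chromosome 9 (mm9, 7282762 to 7697700 from the first to the last probe) holds 10 of the 23, with no other protein-coding gene between neighbours in RefSeq, and it was also the part of the family with least signal on the arrays. By the scanner's flag for spots well above background, 3 of these 10 genes had signal on all 7 arrays (Mmp1a, Mmp7 and Mmp27), 4 on no array (Mmp1b, Mmp10, Mmp13 and Mmp20) and 3 on some (Mmp12 on 3 arrays, Mmp3 and Mmp8 on 1 each). Of the other 13 Mmp genes, 8 were well above background on all 7 arrays, 2 on none and 3 on some. The promoters of the cluster show what its genes share in sequence. The lines below give 120 bases, from 110 before to 10 after the RefSeq transcript start (GRCm38.p6), 5′ to 3′ along the gene; the capitals mark the AP-1 motif TGANTCA, which is its own reverse complement, and the TATA motif TATAAA on the gene's strand.
Mmp13 promoter, chr9:7272404-7272523, plus strand: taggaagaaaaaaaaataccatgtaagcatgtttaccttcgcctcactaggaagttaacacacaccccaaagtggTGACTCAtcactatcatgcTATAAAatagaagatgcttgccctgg
Mmp12 promoter, chr9:7347264-7347383, plus strand: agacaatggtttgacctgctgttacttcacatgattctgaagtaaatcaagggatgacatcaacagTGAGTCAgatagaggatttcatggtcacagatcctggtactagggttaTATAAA
Mmp1b promoter, chr9:7388017-7388136, minus strand: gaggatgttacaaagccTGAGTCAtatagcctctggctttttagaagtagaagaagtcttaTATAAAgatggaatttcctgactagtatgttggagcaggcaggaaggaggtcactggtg
Mmp3 promoter, chr9:7445712-7445831, plus strand: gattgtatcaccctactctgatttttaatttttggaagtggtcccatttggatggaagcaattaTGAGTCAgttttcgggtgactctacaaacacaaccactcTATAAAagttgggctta
Mmp1a promoter, chr9:7464031-7464150, plus strand: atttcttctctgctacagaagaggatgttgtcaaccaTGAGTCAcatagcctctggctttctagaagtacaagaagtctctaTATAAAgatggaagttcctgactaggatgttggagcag
Mmp10 promoter, chr9:7502232-7502351, plus strand: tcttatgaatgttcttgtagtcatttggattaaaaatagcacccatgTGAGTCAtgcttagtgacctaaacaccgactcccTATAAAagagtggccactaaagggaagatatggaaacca
Mmp20 promoter, chr9:7628121-7628240, plus strand: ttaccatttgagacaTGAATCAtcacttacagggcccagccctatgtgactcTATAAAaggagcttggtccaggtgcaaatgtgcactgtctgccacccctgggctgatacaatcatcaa
Mmp7 promoter, chr9:7691980-7692099, plus strand: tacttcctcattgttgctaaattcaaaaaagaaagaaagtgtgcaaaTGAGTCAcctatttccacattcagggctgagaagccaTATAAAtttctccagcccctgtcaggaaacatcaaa
These are all the genes of the cluster whose RefSeq promoter, 250 bases before to 50 after the start, held either motif as spelled here, and Mmp7 has a further TATAAA 123 bases before its start. Both motifs stood in the same 8 of 10 genes, and Mmp8 and Mmp27 had neither. For Mmp12 and Mmp7 RefSeq gives a further start whose window held neither motif, and Mmp12 is the one gene of the 8 whose TATA motif began 4 bases after the annotated start. Promoters were matched for 36 of the 51 genes. Of the 26 outside the cluster, 0 held the AP-1 motif and 3 held the TATA motif (Adamts1, Adamtsl2 and Mmp21). Over all 32851 RefSeq promoters of this length, 7.81% held the AP-1 motif, 8.32% the TATA motif on the gene's strand (13.6% on either strand) and 0.995% both. The cluster promoters were poor in CpG, with a median of 1.5 CpG per gene (0 to 7, the richer window where a gene has more than 1) in 300 bases, against a median of 22 (2 to 46) in the other members and 7 over all promoters. A motif match is a description of the sequence: genes with both motifs were found among those on all 7 arrays (Mmp1a, Mmp7) and among those on none (Mmp1b, Mmp10, Mmp13, Mmp20). The promoter of Timp3, which is described next, is shown for contrast with its 24 CpG in capitals.
Timp3 promoter, chr10:86300162-86300461, plus strand: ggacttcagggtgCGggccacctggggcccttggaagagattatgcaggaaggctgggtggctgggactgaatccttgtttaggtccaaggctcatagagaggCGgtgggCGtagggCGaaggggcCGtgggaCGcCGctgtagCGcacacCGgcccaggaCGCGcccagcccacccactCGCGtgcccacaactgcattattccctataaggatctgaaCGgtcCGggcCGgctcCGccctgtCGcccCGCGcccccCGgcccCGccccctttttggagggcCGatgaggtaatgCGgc

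**Figure D1:**
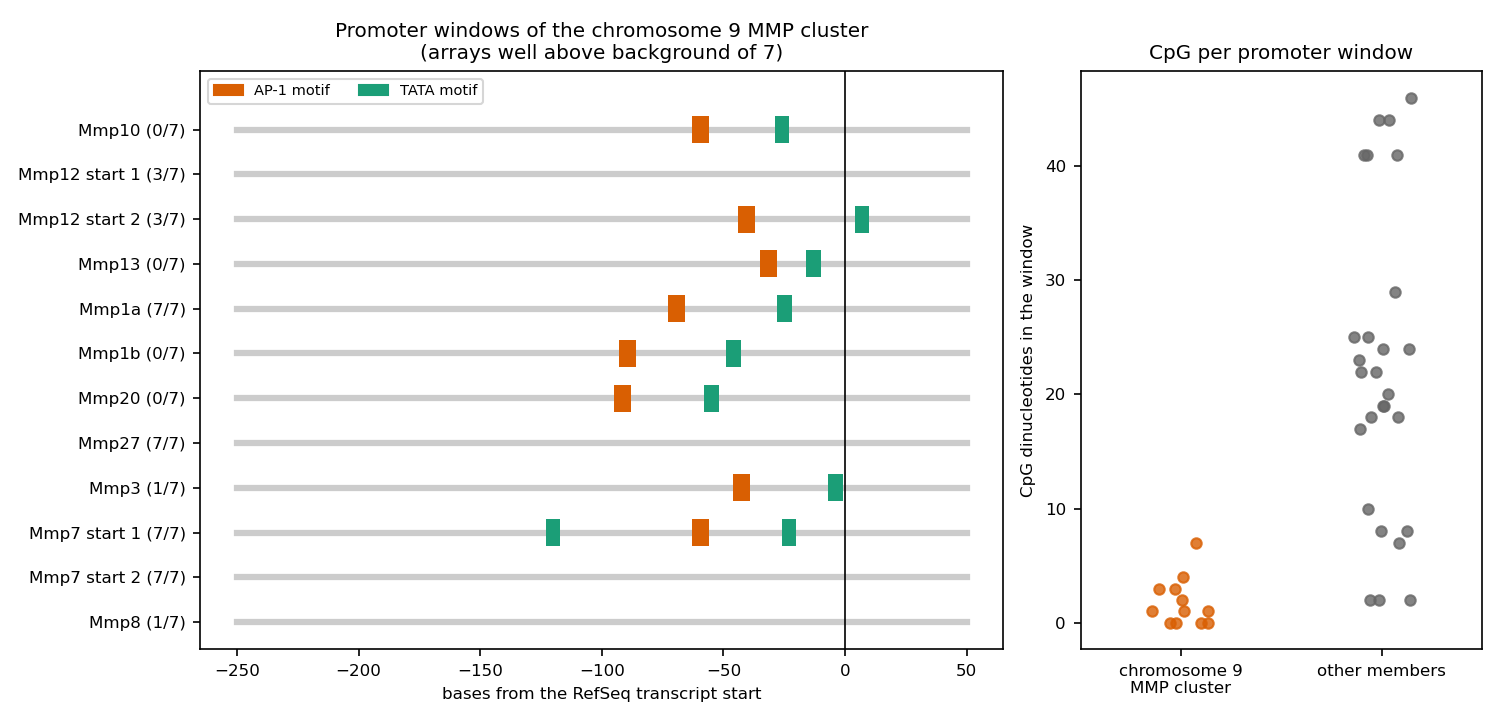
Left, the 300-base RefSeq promoter window of each chromosome 9 MMP gene (grey line; x axis, bases from the transcript start), with AP-1 motifs in orange, TATA motifs in green and the number of arrays out of 7 with a probe well above background in brackets. Right, CpG per window (points) in the cluster and in the other members: no window of the cluster had more than 7, and the others reached 46.

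All levels below are log2 of the processed probe signal minus the 75th percentile of the same array, so that 0 is the level of the probe at that percentile, and differences are geriatric minus young. A level of 1 probe is not compared with that of another, since probes differ in how brightly they bind. Of the 51 genes, 38 had a probe with signal well above background on 3 or more arrays, and these were tested with limma, with Benjamini-Hochberg adjustment over all 27389 tested features of the array. None of the 38 passed the adjusted threshold of 0.05, where 7 features (0.0256%) of the whole array did. At an unadjusted limma p under 0.05 there were 4 members higher in geriatric cells, 10.5% of the 38 against 4.42% of all tested features, and 4 lower, 10.5% against 2.81%. In 8 members every geriatric sample was above every young sample (21.1%, against 7.19% of all features), and in 4 every geriatric sample was below (10.5%, against 5.65%). These shares describe the members and were not tested as a list. The median difference was 0.21 over the 38 members, with 24 higher and 14 lower in geriatric cells, and -0.0024 over all tested features. For 31 members the probe was well above background on all 7 arrays, and for these the median was 0.23, with 21 higher and 10 lower. RNA of a sorted population cannot tell fewer cells of a type from less RNA per cell.

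**Figure D2:**
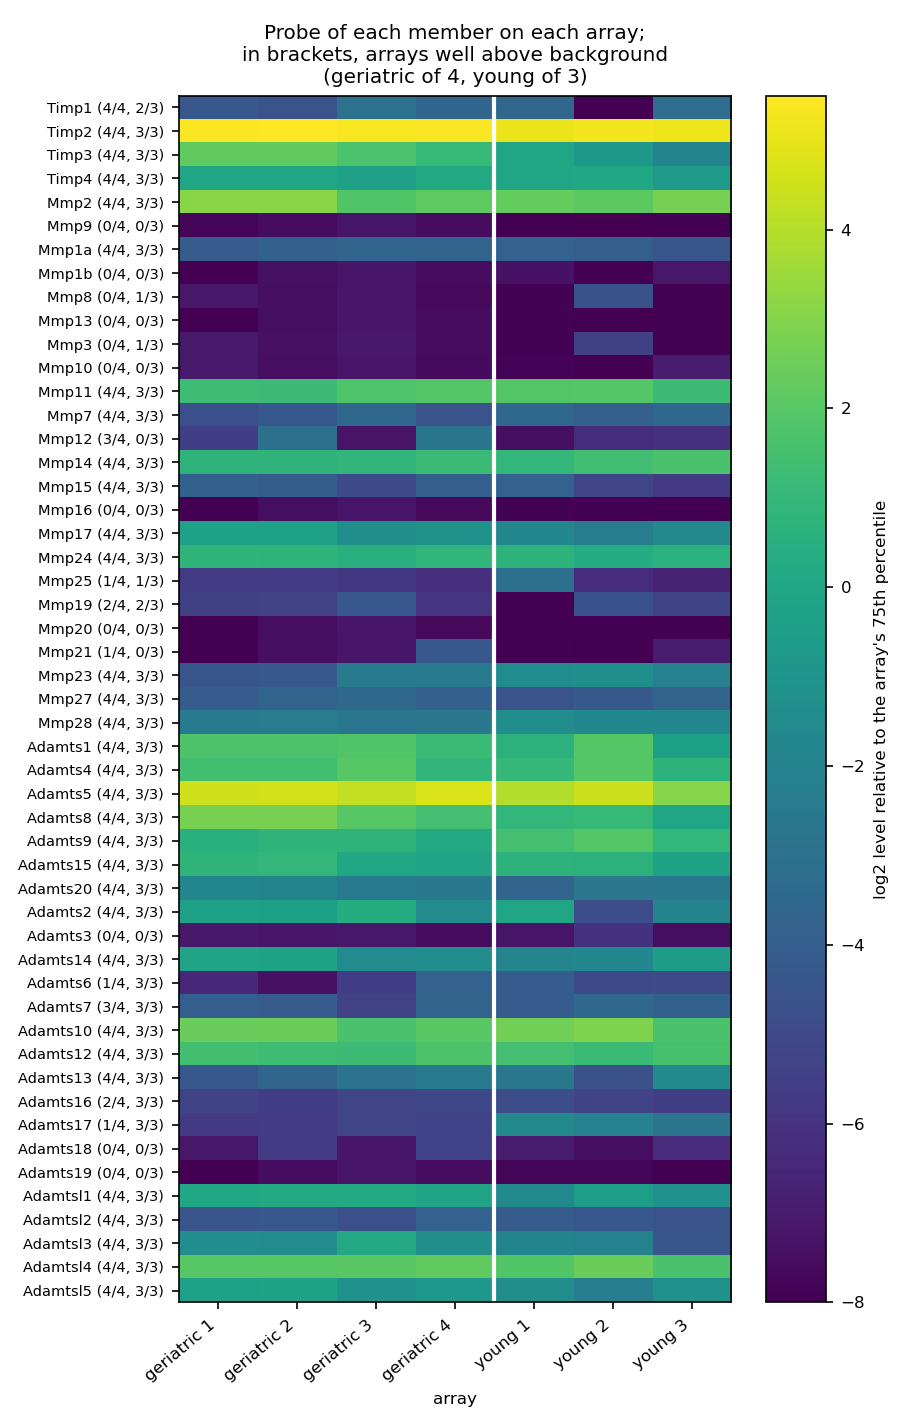
Level of each of the 51 genes (rows, by class) on each of the 7 arrays (columns, geriatric left of the white line, young right of it) as log2 relative to the array's 75th percentile (colour). The bracketed pairs count geriatric and young arrays well above background: Adamts17 has 1 of 4 geriatric arrays and 3 of 3 young arrays, Mmp12 3 of 4 geriatric arrays and 0 of 3 young arrays.

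All 4 inhibitor genes were tested, and in all 4 the mean was higher in geriatric cells, with a median difference of 0.75 (0.29 with normexp background correction). The widest gap was in Timp3, the matrix-bound inhibitor. Timp3 (probe at mm9 chromosome 10, 85811696 to 85811755) had levels of 2.21, 1.68 and 1.06 in the geriatric samples, against -0.050, -0.79 and -1.93 in the young samples. Every geriatric sample was above every young sample, and the young samples spread more widely than the geriatric samples. The means were 1.65 ± 0.58 in geriatric and -0.92 ± 0.95 in young cells (SD, n = 3 each), a 5.95-fold difference that limma did not call (log2 difference 2.57, SE 0.55, adjusted p = 0.341).

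Timp2, which inhibits MMPs and also takes part in activating pro-MMP2 at the cell surface, had a small gap with tight groups. Its levels were 5.49, 5.38 and 5.44 in the geriatric samples, against 5.13, 5.28 and 5.15 in the young samples. The groups did not overlap, at a log2 difference of 0.24 (SE 0.15, adjusted p = 0.797), and its further probe gave 0.27, also without overlap. Timp4, the inhibitor known from heart and other striated muscle, had levels of -0.051, -0.29 and 0.18 in the geriatric samples, against 0.0056, 0.12 and -0.77 in the young samples. These overlap, and the difference of 0.16 (SE 0.29, adjusted p = 0.940) turned to -0.12 without young replicate 3. Timp1, the soluble inhibitor best known from inflammation, had levels of -4.44, -2.99 and -3.58 in the geriatric samples, against -3.55, -8.02 and -3.19 in the young samples. Its probe was well above background on 4 of 4 geriatric arrays and on 2 of 3 young arrays. Young replicate 2 is the array without signal, and the difference was 1.25 (SE 1.34, adjusted p = 0.901) with it and -0.30 without it.

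Timp1, Timp3 and Timp4 each lie inside a synapsin gene in RefSeq, a trait of this family: Timp1 in Syn1, Timp3 in Syn3 and Timp4 in Syn2. Syn3 was well above background on 3 of 4 geriatric arrays and 2 of 3 young arrays, with levels of -1.11, -2.11 and -7.54 in the geriatric samples, against -2.65, -3.50 and -8.20 in the young samples. Its groups overlapped (difference 1.20, SE 2.19, adjusted p = 0.941). The differences of Syn1 (-0.069) and Syn2 (0.68) also came with overlapping groups.

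**Figure D3:**
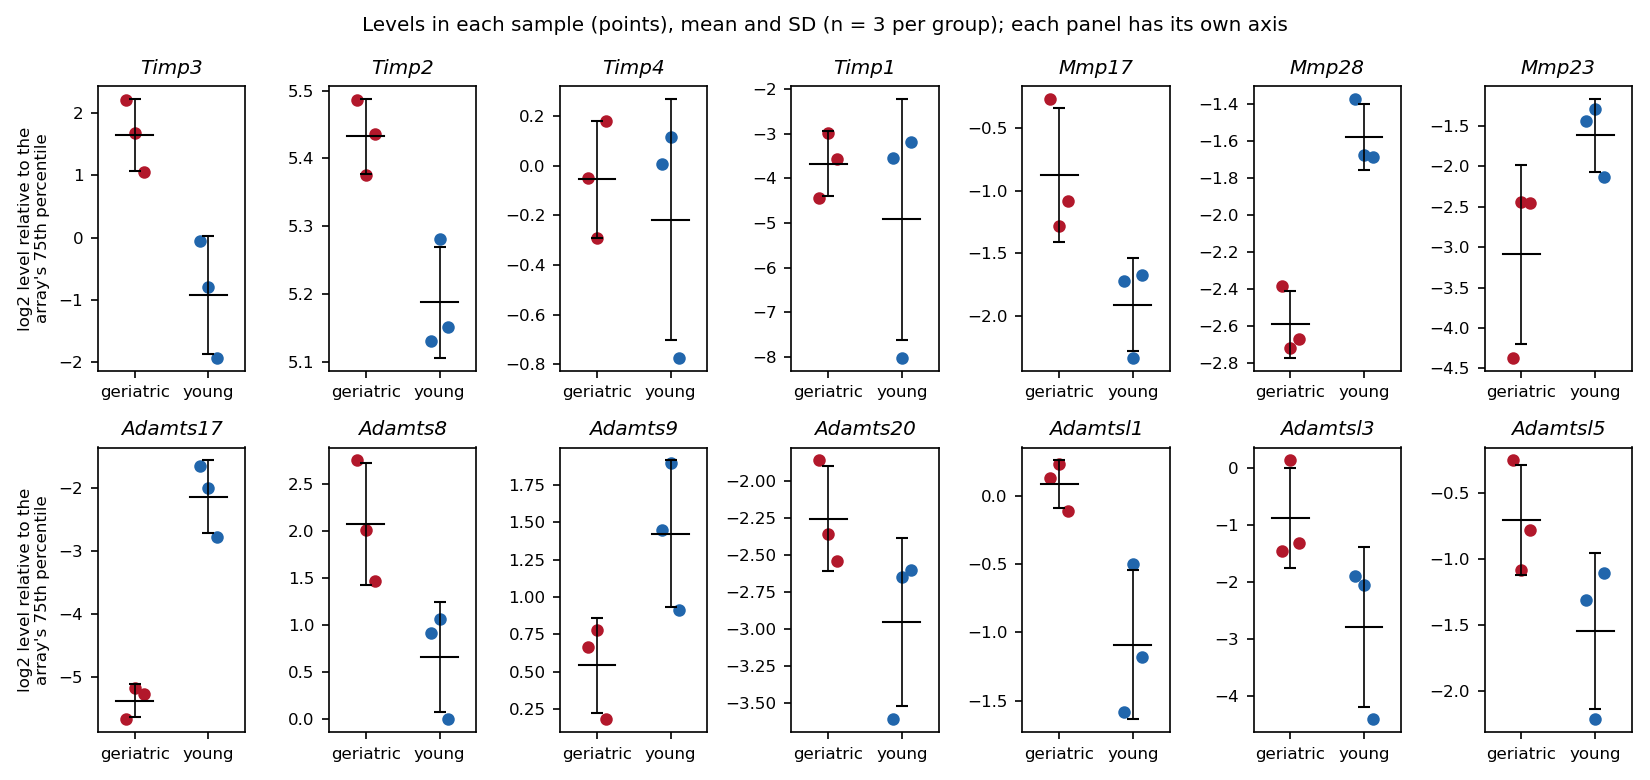
Levels of the 4 Timp genes and of the 10 other members whose groups did not overlap (y axis, log2 relative to the array's 75th percentile; each panel has its own scale). Points are samples (geriatric red, young blue), lines the mean and bars the SD of 3 samples; the Timp3 groups lie on either side of 0.5, and the spread in Timp1 comes from the young sample at -8.02.

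Among the MMPs, 13 of 23 genes were tested, 7 higher and 6 lower in geriatric cells, with a median difference of 0.19. Of the other 10, 6 were well above background on no array (Mmp9, Mmp1b, Mmp13, Mmp10, Mmp16 and Mmp20) and 4 on 1 or 2 arrays (Mmp3, Mmp8, Mmp21 and Mmp25). The 3 tested genes whose groups did not overlap were Mmp17, Mmp28 and Mmp23. Mmp17 encodes the membrane-type enzyme MT4-MMP, which is held on the surface by a lipid anchor. Its levels were -0.27, -1.28 and -1.08 in the geriatric samples, against -1.72, -2.34 and -1.67 in the young samples. The means were -0.87 ± 0.54 in geriatric and -1.91 ± 0.37 in young cells (SD, n = 3 each), 2.05-fold higher in geriatric cells (log2 difference 1.04, SE 0.34, adjusted p = 0.587).

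Mmp28, the secreted enzyme epilysin, had the tightest groups of the 4 members that were lower without overlap. Its levels were -2.38, -2.72 and -2.67 in the geriatric samples, against -1.37, -1.68 and -1.69 in the young samples. The gap between the groups was wider than the spread within either, with a log2 difference of -1.01 (SE 0.19, adjusted p = 0.283), that is 2.02-fold higher in young cells. A further Mmp28 probe was well above background on 1 array only and was not tested. Mmp23, an MMP that lacks the usual cysteine switch and is anchored by its amino-terminal end, had levels of -4.37, -2.45 and -2.46 in the geriatric samples, against -1.44, -1.29 and -2.13 in the young samples. The groups did not overlap, but the averaged sample of geriatric arrays 1 and 2 lay far below the other geriatric samples. The log2 difference was -1.47 (SE 0.59, adjusted p = 0.683) and -0.83 without that sample.

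Mmp2, Mmp11 and Mmp14, the 3 Mmp genes with the highest mean signal, showed no separation of the groups. Mmp2, gelatinase A, had levels of 3.1, 1.85 and 2.17 in the geriatric samples, against 2.32, 2.08 and 2.75 in the young samples. The groups overlapped and the difference was -0.012 (SE 0.38, adjusted p = 0.997). Its sign was not stable: the value was 0.25 without geriatric replicate 3 and -0.38 when the averaged geriatric sample was dropped. Mmp9, gelatinase B, gave no signal well above background and was not tested. Mmp14, the membrane-type enzyme MT1-MMP that activates pro-MMP2, had levels of 0.77, 0.87 and 1.21 in the geriatric samples, against 0.92, 1.34 and 1.62 in the young samples. Those groups also overlapped (difference -0.35, SE 0.25, adjusted p = 0.832, and -0.18 without young replicate 3). Mmp11, stromelysin-3, had levels of 1.29, 1.77 and 1.91 in the geriatric samples, against 1.88, 1.95 and 1.26 in the young samples, with a difference of -0.038 (SE 0.28, adjusted p = 0.987) whose sign turned under normexp background correction (0.0081). Mmp24, the membrane-type enzyme MT5-MMP, was 0.19 higher by its brighter probe and -0.082 by the other.

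Mmp12, macrophage elastase, was the one tested member with no signal in a whole group: it was well above background on 3 of 4 geriatric arrays and on 0 of 3 young arrays. Its levels on geriatric arrays 1 to 4 were -5.48, -3.02, -7.27 and -2.75, against -7.43, -6.21 and -6.10 on the young arrays. Arrays 1 and 2, which share a sample name, differed from each other by more than the mean difference, and the cause was not tested. The probe passed the filter only through the geriatric arrays, and the sample values overlapped between the groups. The means were -4.76 ± 2.30 in geriatric and -6.58 ± 0.74 in young cells (SD, n = 3 each, limma adjusted p = 0.808). No fold is taken, since 0 of 3 young arrays had signal well above background. The log2 difference of 1.82 was 0.82 when geriatric replicate 4 was left out and 3.07 when replicate 3 was, so the difference rests on single samples. A further Mmp12 probe was well above background on no array. The other 5 tested MMPs (Mmp1a, Mmp7, Mmp15, Mmp19 and Mmp27) had differences of -0.57 to 0.73, all with overlapping groups. The 0.73 is that of Mmp19, which was well above background on 2 of 4 geriatric arrays and 2 of 3 young arrays. A further Mmp27 probe was well above background on no array.

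Among the ADAMTS enzymes 16 of 19 were tested, 8 higher and 8 lower in geriatric cells, and Adamts3, Adamts18 and Adamts19 were well above background on no array. Adamts17, an enzyme whose human gene is mutated in Weill-Marchesani-like syndrome, was low in the geriatric samples. Its levels were -5.68, -5.18 and -5.28 in the geriatric samples, against -1.66, -2.00 and -2.78 in the young samples. The probe was well above background on 1 of 4 geriatric arrays and on 3 of 3 young arrays, so the geriatric levels are at the edge of detection and the probe passed the filter through the young arrays. The means were -5.38 ± 0.26 in geriatric and -2.14 ± 0.58 in young cells (SD, n = 3 each), a log2 difference of -3.23 (SE 0.33, adjusted p = 0.0852 with limma) from which no fold is taken, since 3 of the 4 geriatric arrays had no signal well above background. The difference passed the threshold only with geriatric arrays 1 and 2 entered as separate samples (-3.31, adjusted p = 0.0148). With normexp background correction it was -1.99. A further probe of Adamts17, closer to its 3′ end, had levels of -7.83, -4.07 and -7.60 in the geriatric samples, against -2.24, -5.49 and -2.93 in the young samples. That probe differed by -2.95 (SE 1.31), with geriatric replicate 3 above young replicate 2, so the groups overlapped.

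The 7 proteoglycanases, which cut versican and aggrecan, were all tested; 5 were higher and 2 lower in geriatric cells, with a median difference of 0.70. Adamts8 had levels of 2.75, 2.01 and 1.47 in the geriatric samples, against 0.92, 1.07 and -0.00058 in the young samples. Every geriatric sample was above every young sample, a 2.66-fold difference (log2 1.41, SE 0.44, adjusted p = 0.557), and its further probe gave 1.20, also without overlap. Adamts9, which also acts on versican and whose worm relative GON-1 is needed in gonad development, ran the other way. Its levels were 0.67, 0.78 and 0.18 in the geriatric samples, against 1.45, 1.90 and 0.92 in the young samples. The groups did not overlap (log2 difference -0.88, SE 0.31, adjusted p = 0.622). Its closest relative Adamts20, known from the belted coat pattern of mice, had levels of -1.86, -2.36 and -2.54 in the geriatric samples, against -3.61, -2.65 and -2.60 in the young samples. The lowest geriatric and the highest young value were close together, and the difference of 0.70 (SE 0.35, adjusted p = 0.751) was 0.37 without young replicate 1.

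Adamts5, a main aggrecan-cutting enzyme, had levels of 4.60, 4.28 and 4.75 in the geriatric samples, against 3.92, 4.42 and 3.06 in the young samples. Here 1 young sample lay inside the geriatric range, with a log2 difference of 0.75 (SE 0.37, adjusted p = 0.751) and of 0.87 by its further probe. Without young replicate 3, the lowest sample, the difference was 0.38. Its neighbour on chromosome 16, Adamts1, an enzyme of ovulation and vessel growth in mice, differed by 0.80 (SE 0.59, adjusted p = 0.837) with overlapping groups, and by 0.25 without young replicate 3 and 1.39 without young replicate 2. Adamts8 has a neighbour too, Adamts15, 20109 bases away on chromosome 9 in RefSeq, and there the difference was -0.11 (SE 0.39, adjusted p = 0.974), with a sign that turned within row 1 of the slide (0.44). The probes of Adamts4, another aggrecan-cutting enzyme, disagreed in sign, at 0.23 and -0.093, both within 1 SE of 0.

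The procollagen N-proteinases, which trim the amino-terminal end of fibrillar procollagens, were represented by Adamts2 and Adamts14. The brighter Adamts2 probe had levels of -0.28, 0.35 and -1.48 in the geriatric samples, against -0.074, -4.80 and -1.98 in the young samples. Its difference of 1.82 (SE 1.23, adjusted p = 0.819) rested on young replicate 2 and was 0.56 without it, and the further probe gave -0.24. Adamts14 differed by 0.36 (SE 0.51, adjusted p = 0.921). Adamts10, which binds fibrillin, had levels of 2.42, 1.62 and 2.04 in the geriatric samples, against 2.65, 2.91 and 1.65 in the young samples. Its groups overlapped (difference -0.37, SE 0.40, adjusted p = 0.899, and -0.12 without young replicate 2). Adamts13, the protease of von Willebrand factor, gave -0.12 (SE 0.85) by its brighter probe and 0.39 (SE 0.19) by the other, which did not overlap between the groups. The other 4 enzymes outside these groups (Adamts6, Adamts7, Adamts12 and Adamts16) had differences of -0.76 to 0.026 with overlapping groups. The -0.76 is that of Adamts6, which was well above background on 1 of 4 geriatric arrays and 3 of 3 young arrays. Adamts7 had signal on 3 and Adamts16 on 2 of 4 geriatric arrays, and both on 3 of 3 young arrays.

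All 5 Adamtsl genes were tested, with a probe well above background on all 7 arrays, and in all 5 the mean was higher in geriatric cells, with a median difference of 0.84, except that Adamtsl2 changed sign under each of the 3 other normalizations. Adamtsl1, whose product punctin is a secreted matrix protein, was read by 3 probes. Its brightest probe had levels of 0.13, 0.23 and -0.11 in the geriatric samples, against -1.59, -0.50 and -1.18 in the young samples. Every geriatric sample was above every young sample, a 2.26-fold difference (log2 1.17, SE 0.31, adjusted p = 0.466). The other probes gave 1.44, without overlap, and 1.28, where geriatric replicate 3 fell just below young replicate 2. Adamtsl3 had levels of -1.46, 0.14 and -1.31 in the geriatric samples, against -1.89, -2.04 and -4.41 in the young samples. The groups did not overlap, but young replicate 3 and geriatric replicate 3 lay apart from their groups, and the difference of 1.91 (SE 0.81, adjusted p = 0.698) was 1.09 without young replicate 3. Adamtsl5 had levels of -0.25, -1.08 and -0.78 in the geriatric samples, against -1.31, -2.22 and -1.11 in the young samples. The highest young and the lowest geriatric value were nearly level (difference 0.84, SE 0.37, adjusted p = 0.709, and 0.50 without young replicate 2), and the further probe gave 0.46. Adamtsl4, whose human gene is mutated in displaced lenses, had levels of 2.00, 2.05 and 2.20 in the geriatric samples, against 1.84, 2.46 and 1.64 in the young samples, with overlapping groups (difference 0.11, SE 0.25, adjusted p = 0.959; -0.062 without young replicate 3). Adamtsl2, which binds a latent TGF-β binding protein, differed by 0.032 (SE 0.29) and by -0.046 with normexp correction.

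**Figure D4:**
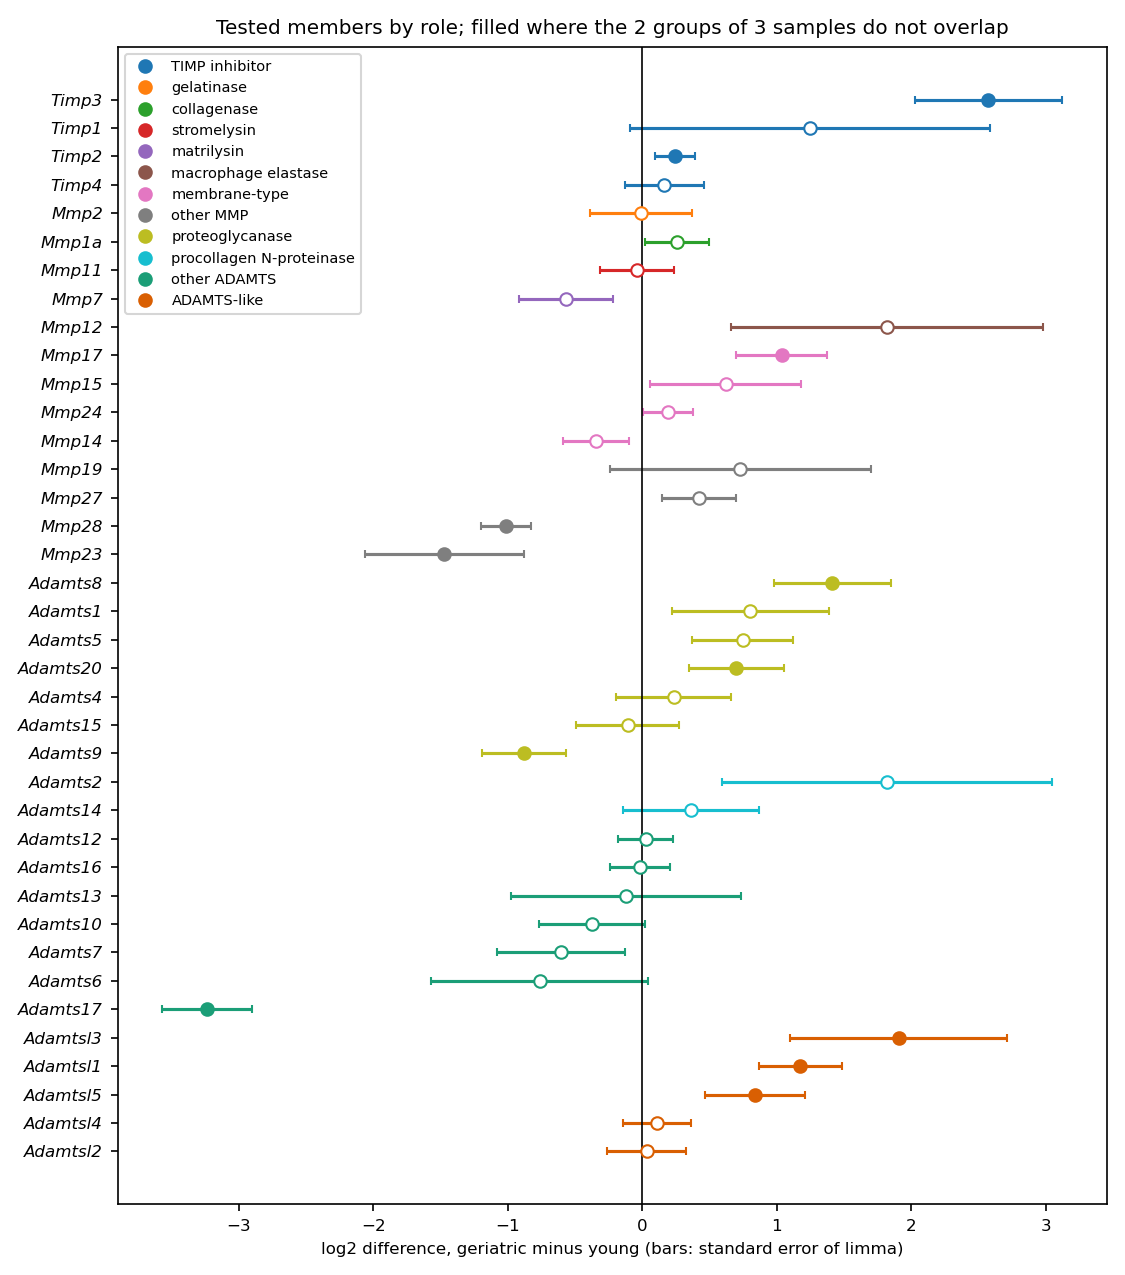
Log2 difference, geriatric minus young, of the 38 tested members (rows, by role), with the standard error of limma as bars; filled points mark members whose groups of 3 samples did not overlap. All Timp and Adamtsl genes lie right of 0, although Adamtsl2 turns to -0.046 with normexp correction, and Adamts17 lies at -3.23, with 1 of 4 geriatric arrays well above background.

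For the members with several tested probes the reading can be checked within the gene. Of 13 such genes, all probes had 1 sign in 9, and both signs occurred in 4 (Adamts2, Adamts4, Adamts13 and Mmp24). The first 2 probes below are shown because they carry the results on Adamts17 and Adamts8. The third is the further Adamtsl1 probe with the difference of 1.28 and overlapping groups, shown because it spans a gap in the genome. They are the 60-base array probes, in the sense of the gene, with mm9 coordinates; the 60 bases of the Adamtsl1 probe span 24088 bases of the genome from end to end, as a probe across a splice junction does.
Adamts17 probe, chr7:74147413-74147472: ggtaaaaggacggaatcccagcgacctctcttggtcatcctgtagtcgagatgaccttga
Adamts8 probe, chr9:30751050-30751109: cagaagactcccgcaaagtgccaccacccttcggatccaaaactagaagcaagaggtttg
Adamtsl1 probe, chr4:85898689-85922776: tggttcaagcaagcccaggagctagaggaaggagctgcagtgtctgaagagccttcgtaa

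Position on the slide moved with age. Row 1 held the 3 young arrays and geriatric array 1, and row 2 held geriatric arrays 2, 3 and 4. With the row as a block, or within row 1 alone, the estimates are the same by construction, because row 2 holds no young array. They were 3.13 for Timp3, 0.26 for Timp2, -3.54 for Adamts17, 2.09 for Adamts8, 1.14 for Adamts20, -0.85 for Adamts9, 1.17 for Adamtsl1, 1.38 for Adamtsl3, 1.27 for Adamtsl5, 1.65 for Mmp17, -0.88 for Mmp28 and -2.76 for Mmp23. These values rest on geriatric array 1 alone, and for members chosen because their groups did not overlap the sign is all but fixed beforehand, so it is no sign of stability. Within row 1 the groups did not overlap in 21 of the 38 members (55.3%), against 56.6% of all tested features. Geriatric arrays 1 and 2, which share a sample name and lie in different rows, differed by a median of 0.0862 over the member probes. The other 20 pairs of arrays differed by 0.429 to 0.804.

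The wider matrix machinery was read from lists of related genes. The ADAM proteases, the membrane-bound relatives that shed cell-surface proteins, had 10 of 12 genes tested, 8 higher and 2 lower in geriatric cells, with a median difference of 0.30 and none past the adjusted threshold. Adam22, a catalytically inactive member that serves as a receptor in nerve cells, had levels of 1.06, -0.28 and 0.55 in the geriatric samples, against -1.48, -1.80 and -1.88 in the young samples (difference 2.17, SE 0.37, adjusted p = 0.259). Of the activators, cofactors and other inhibitors, 18 of 23 were tested, 11 higher and 7 lower, with a median of 0.063. Reck, a membrane-anchored inhibitor of MMPs, had levels of 1.58, 1.58 and 2.06 in the geriatric samples, against 1.24, 0.92 and 0.60 in the young samples (difference 0.82, SE 0.25, adjusted p = 0.540). Thbs2, a thrombospondin that helps clear MMP2, was 1.08 higher (SE 0.21, adjusted p = 0.313), also with no overlap. Spock1, a testican proteoglycan, was well above background on 3 of 4 geriatric arrays and 0 of 3 young arrays. It passed the filter only through the geriatric arrays, so its limma adjusted p of 0.254 is not free of that choice. Its log2 difference of 3.01 was 0.65 with the authors' values.

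Of the matrix proteins that these enzymes cut, 21 of 24 were tested, 10 higher and 11 lower in geriatric cells, with a median of -0.011. Their 6 genes at an unadjusted limma p under 0.05 went both ways. Of the 21, 2 were higher and 4 lower at that rule, where 4.42% and 2.81% of all tested features were. Eln, elastin, differed by -1.58 (SE 0.27, adjusted p = 0.262), Lamb1, a laminin chain, by -1.09 (SE 0.21, adjusted p = 0.307), Fn1, fibronectin, by -1.55 (SE 0.47, adjusted p = 0.544) and Comp by -1.64 (SE 0.64, adjusted p = 0.669). The collagen chain Col1a2 was 1.12 higher (SE 0.39, adjusted p = 0.609) and the proteoglycan decorin, Dcn, 1.56 higher (SE 0.58, adjusted p = 0.648). The groups of Comp and of Dcn overlapped, and Comp was well above background on 2 of 4 geriatric arrays and 3 of 3 young arrays. Of procollagen processing, 4 of 5 tested genes were higher, with Pcolce2, an enhancer of procollagen cleavage, at 0.77 (SE 0.21, adjusted p = 0.485). Of 6 partners in glycosylation and secretion, 4 were higher, with the sulfatase Sulf1 at 0.78 (SE 0.29, adjusted p = 0.645). None of the tested genes on these lists passed the adjusted threshold. With the slide row as a block, which rests on geriatric array 1, the difference was -0.10 for Comp, 0.31 for Dcn, 0.67 for Reck and 0.90 for Sulf1, all 4 then above an unadjusted p of 0.05, and -2.40 for Fn1.

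Several members are also known from the stromal cells of muscle, so markers of other cells are given beside them. The satellite cell marker Pax7 had levels of 4.11, 4.36 and 3.92 in the geriatric samples, against 4.09, 4.46 and 3.72 in the young samples. The 9 satellite cell markers had a median difference of 0.053, with 6 higher and 3 lower in geriatric cells. Among the 3 lower, Itga7, the gene of the sorting antigen integrin α7, had levels of 1.83, 1.32 and 1.60 in the geriatric samples. Its young samples were at 1.92, 2.10 and 2.04, without overlap (difference -0.44, SE 0.19, limma adjusted p = 0.703). Of 12 markers of fibro-adipogenic progenitors, the fibroblast-like cells of muscle, 11 were tested, 9 higher and 2 lower in geriatric cells, with a median of 0.73. Besides Dcn, Dpt was 0.75 higher (SE 0.17, limma adjusted p = 0.359), without overlap between the groups. Mfap5 was 2.45 higher (SE 0.93, limma adjusted p = 0.656), also without overlap, and 1.39 higher without young replicate 3. The summed linear signal of the 12 markers, in units of the array's 75th percentile, was 66.3 to 75.9 in the geriatric samples and 54.7 to 70.5 in the young samples. Such a sum adds probes that bind unequally, and a bright probe can carry most of it: the brightest here, Col3a1, made up 28.8% to 53.2%. Pdgfra, the defining marker of these cells, was at background throughout. Among the 12 are genes of 2 sorting antigens, Cd34 and, for Sca1, Ly6a. They differed by 0.090 and 1.22, both with overlapping groups, and Ly6a had signal on 2 of 4 geriatric and 2 of 3 young arrays. Of 8 pericyte and smooth muscle markers, 5 were higher, with summed signals of 97.4 to 116 in the geriatric samples and 102 to 115 in the young samples, of which Mcam made up 83.7% to 89.6%. The receptor Pdgfrb among them had levels of -1.48, -1.45 and -1.22 in the geriatric samples, against -3.88, -3.35 and -3.64 in the young samples (difference 2.24, SE 0.20, adjusted p = 0.0603, and 0.0104 with geriatric arrays 1 and 2 as separate samples). Of 5 tenocyte markers, 3 were tested and 2 were higher, both without overlap between the groups. Thbs4 was 1.87 higher (SE 0.48, limma adjusted p = 0.459). Mkx was 1.29 higher (SE 0.49, limma adjusted p = 0.654), and 0.79 higher without young replicate 1. Scx differed by -0.024. The summed tenocyte markers were at 3.72 to 4.45 in the geriatric samples and 3.08 to 4.10 in the young samples. Scx made up 74.0% to 94.8% of the sum, and Tnmd was at background throughout. Of 9 endothelial markers, 8 were tested, 5 higher and 3 lower in geriatric cells, with a median of 0.16. Their median deviation from the gene means was 1.56 in geriatric replicate 4, against -0.17 and -0.14 in the other geriatric samples. In the young samples it was 0.034, -0.00096 and 0.62. Pecam1, the gene of the sorting antigen CD31, was at -6.13, -6.44 and -0.86 in the geriatric samples. Its young samples were at -3.72, -2.90 and -5.92. The summed endothelial markers were at 8.60 to 12.2 in the geriatric samples and 7.88 to 9.65 in the young samples. Tek made up as much as 90.5% of that sum. The summed macrophage and monocyte markers were at 96.4 to 115 in the geriatric samples and 92.1 to 102 in the young samples. Itgam alone made up 94.4% to 95.4% of the sum, and Lyz2 was at background throughout. Itgam is the gene of CD11b, an antigen the cells were sorted as negative for. Its RNA was at 6.51, 6.52 and 6.78 in the geriatric samples, against 6.60, 6.59 and 6.44 in the young samples. Without Itgam the sum was 4.96 to 5.34 in the geriatric and 4.74 to 5.30 in the young samples. Ptprc, the gene of the sorting antigen CD45, differed by 0.38 (SE 0.34). The summed granulocyte markers were at 69.6 to 77.6 in the geriatric samples and 78.2 to 83.3 in the young samples. Csf3r alone made up 99.7% to 99.8% of that sum, and S100a9 was at background throughout. Of 8 markers of mature muscle fibres, 7 were tested, 5 higher and 2 lower in geriatric cells, with a median of 0.18. Their summed signals were 3.51 to 7.48 in the geriatric samples and 3.15 to 4.90 in the young samples, with Acta1 at 37.6% to 50.8% of the sum. The part of other cells in the differences of Timp3, the Adamtsl genes and the other members was not tested.

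**Figure D5:**
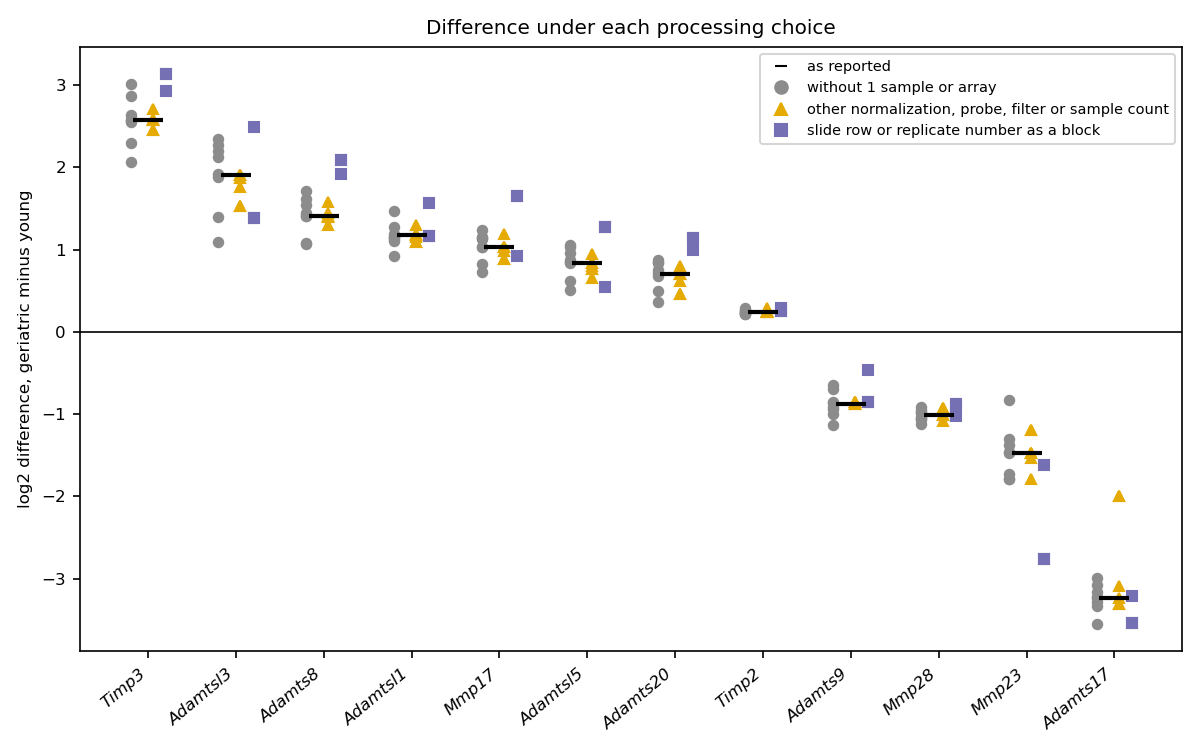
Log2 difference, geriatric minus young (y axis), of the 12 members whose groups did not overlap (x axis), as reported (black bar) and under each processing choice (grey circles, without 1 sample or array; yellow triangles, other normalization, probe rule, filter or sample count; violet squares, slide row or replicate number as a block). The grey and violet points of members chosen for no overlap lie on 1 side of 0 by that choice, and the yellow points reuse the same arrays. Timp3 ranges over 2.07 to 3.13 and Adamts17 over -3.55 to -1.99.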

How the data were processed

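RNA of sorted satellite cells was measured on 7 Agilent arrays of 1 slide. Spot intensity values were deposited as Feature Extraction 10.7.3.1 output, with the background subtracted and the signal detrended in the processed column, per the file headers (protocol GE1_107_Sep09, design 028005, build mm9). The deposited series matrix holds the authors' log2 values, which correlated at 0.99997 or more on each array with normexp-corrected, quantile-normalized signals; the sources used here do not name its software. From these, each of the 55681 probes outside the controls got a level: log2 processed signal less the 75th percentile of its own array. Spots with an outlier flag, 124 to 229 on an array, were dropped, repeats of a probe averaged, and probes well above background on at least 3 of 7 arrays tested. The brightest of a gene's tested probes stood for it. On each array 38042 to 41282 probes were well above background and none was saturated; the number of arrays limits the precision.

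Geriatric arrays 1 and 2 share a sample name, correlated at 0.992 (other pairs 0.914 to 0.954) and lay within 2 combined errors for 95.5% of probes (other pairs 50.9% to 60.1%), and were averaged. Differences were tested with limma 3.58.1 (lmFit, eBayes, 2-sided) in R 4.3.3, checked on simulated data. Values per sample are given for all Timp genes, for members with an unadjusted p under 0.05 or no overlap between groups, and for the 3 brightest Mmp, Adamts and Adamtsl genes; members whose probes disagree in sign are named, as are list genes with an unadjusted p under 0.05. Overlaps with synapsin genes, neighbouring members and values of Adamts1, Adamts14, Adamts15 and Adamtsl2 were added after the data were seen, as was Mmp12. The members and lists were chosen with earlier results of these data known. Promoters and gene spans come from RefSeq (GRCm38.p6). The main test did not pair samples by the replicate numbers of the titles. Alternatives were other normalizations, probe rules, filters, left-out samples, the slide row and a replicate block. Python 3.11.15 and matplotlib 3.10.9 drew the figures.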

Additional observations from a re-analysis of the deposited data

How the results depend on the processing

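The 12 members whose groups did not overlap kept their direction under the other normalizations, probe rules and filters. Adamts17 was not tested with probes detected on all 7 arrays. These settings reuse the same arrays, and a filter leaves the values of a probe as they are. The kept direction of members chosen for no overlap is therefore no sign of stability. For left-out samples and blocks the choice of these members all but fixes the sign. The count of such members was 21 within row 1 of the slide, which holds 1 geriatric array (55.3% of members, against 56.6% of all features). It was 11 to 13 with other processing of all arrays (28.9% to 35.5%, against 11.2% to 13.0%), 16 with no filter (31.4%, against 19.9%) and 12 to 16 with a sample or array left out (31.6% to 42.1%, against 12.4% to 25.1%). The count past the adjusted threshold was 0, and 1 with geriatric arrays 1 and 2 as separate samples (Adamts17), where 64 features of the whole array passed instead of 7. At an unadjusted limma p under 0.05 the count was 8 of 38 members, beside 1980 of 27389 tested features. Over the other settings it was 7 to 11 members. The 11 came with geriatric arrays 1 and 2 as separate samples, beside 3054 of 27388 features. Without young replicate 2 the count was 7 members, beside 2146 of 27389 features. Over the whole array the 7 calls were 4 with normexp correction or the authors' values, 2 with probes detected on all 7 arrays, 2 without young replicate 3 or geriatric replicate 3, 1 without the averaged geriatric sample, and 0 with the slide row as a block or when geriatric replicate 4, young replicate 1 or young replicate 2 was left out.

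Members with small differences changed sign. Mmp11 was at 0.0081 with normexp correction, 0.0159 with quantile normalization and 0.0084 with the authors' values. Mmp2 was at 0.0173 with quantile normalization, 0.17 with separate geriatric arrays and 0.71 with the slide row as a block or within row 1. Adamts15 was at 0.0389 with separate geriatric arrays, 0.44 with the row as a block or within row 1 and 0.22 with the replicate block. Adamtsl2 was at -0.0461 with normexp correction, -0.0583 with quantile normalization, -0.0546 with the authors' values, -0.13 with the row as a block or within row 1 and -0.22 with the replicate block. Adamts13 was at 0.13 as a mean of its probes, and Timp1 at -0.35 with the replicate block. Leaving out 1 sample or array gave -0.26 to 0.15 for Mmp11, -0.38 to 0.25 for Mmp2, -0.98 to 0.56 for Adamts13, -0.052 to 0.59 for Adamts4, -0.062 to 0.35 for Adamtsl4, -0.059 to 0.77 for Adamts14, -0.42 to 0.091 for Adamts15, -0.23 to 0.25 for Adamtsl2, -0.30 to 2.12 for Timp1 and -0.12 to 0.33 for Timp4. The causes were not tested.

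The replicate block, over the 6 samples, left 0 members and 0 features of the whole array past the adjusted threshold. It left 8 of the 38 members (21.1%) and 2411 of 27389 features at an unadjusted limma p under 0.05. Deviations of same-numbered samples correlated at -0.043 and -0.0044, and those of other pairs at -0.11 to 0.078. So few values cannot decide whether the numbers pair the samples. Signal over background limits 7 tested members, whose probes lacked signal on some arrays: Adamts6, Adamts7, Adamts16, Adamts17, Mmp12, Mmp19 and Timp1. Of these, Adamts17, Mmp12 and Timp1 were at -1.99, 0.83 and 0.33 with normexp correction.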
